A study of Aspergillus niger with 6 samples.

Results

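Transcript levels in Aspergillus niger mycelium kept on willow wood for 24 h were set against those of mycelium grown on glucose for 48 h. The comparison used 4 of the 6 RNA sequencing libraries of the series, 2 per group, chosen by the culture condition in their labels, and took in all 15431 genes listed for each library. Every culture was of strain N402, a laboratory strain of a mould grown industrially for its enzymes, was grown in shake flasks at 28 °C and gave mycelium as the labelled tissue. The willow 24 h group was first grown in glucose medium for 48 h, collected on a filter, washed in medium free of any carbon source, and then placed, as 1.5 g of wet mycelium per flask, in medium with 1% ball-milled willow. The glucose 48 h group was taken from medium with 1% glucose. The design text describes duplicate cultures, so replicates A and B of a group were taken as separate flasks. The labels do not say more on whether they came from separate spore stocks or precultures. The p-values measure only the spread between flasks, estimated from all 6 libraries, which take in the third group (willow with glucose added). Carbon source, the wash and transfer, and the additional culture time of the willow group cannot be told apart. The question the comparison addresses is which transcripts differ when ground wood takes the place of glucose as the carbon source.

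Willow is a hardwood feedstock considered for biofuel, and its walls consist of cellulose, of xylan and other hemicelluloses, of pectin and of lignin. Fungi of this genus take up only small sugars, so they secrete cellulases, xylanases, pectinases and debranching enzymes, then import the released hexoses and pentoses and feed them into glycolysis and the pentose pathway. In A. niger the activator XlnR switches on genes for xylan and cellulose breakdown in the presence of D-xylose, and the repressor CreA holds such genes down when glucose is plentiful.

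Reads assigned to genes numbered 557114 and 434508 in the willow libraries and 635522 and 758523 in the glucose libraries. They were 2.32% and 1.46% of all reads on willow, against 2.97% and 2.99% on glucose, and multiply aligned reads were 69.8% and 75.7% on willow, against 58.4% and 68.3% on glucose. The part of this difference in depth in the results below was not tested. Levels are CPM, which are counts scaled to a common TMM-adjusted library size, unless RPKM, which also divides by transcript length, is named. A sum of 3 counts in the pair of libraries of a group equals 3.66 CPM on willow and 1.93 CPM on glucose, and intervals and limits of this kind cover counting error only. Within a group, log2 CPM of the 2 libraries correlated across the 6181 genes with enough counts to be tested, at r = 0.905 on willow and 0.937 on glucose. Genes are not independent replicates, and these values only describe the libraries. Of the 3047 genes with at least 10 counts in every library of the series, the median one differed 1.29-fold between the willow libraries. Between the glucose libraries it differed 1.27-fold. As whole-mycelium samples, the libraries cannot separate fewer active cells from less RNA per cell.

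With TMM scaling, more genes were higher than lower on willow, and the higher ones by larger folds. Of 15431 genes, 4129 had no count in any of the 4 libraries and 6181 had enough counts to be tested. With edgeR's quasi-likelihood test (two-sided, Benjamini-Hochberg adjusted p under 0.05), 1925 of the 6181 tested genes were called, which is 31.1%. Of these, 1089 were higher on willow (17.6%) and 836 were lower (13.5%). The median log2 fold change, always willow over glucose, was 2.58 among the called higher genes, -2.10 among the called lower genes and -0.08 over all tested genes. A change of 16-fold or more was estimated for 324 of the higher and 133 of the lower genes, and one of 64-fold or more for 177 higher and 60 lower genes. Among them, 64 of the higher genes had no count on glucose and 41 of the lower genes none on willow, so that their estimated fold depends on the fitting. Scaling to the total gene count alone shifted that overall median by -0.43 and gave 834 higher and 1532 lower genes, and limma-trend on the deposited RPKM values, with a shift of -0.35, gave 478 higher and 1769 lower genes. The 95% interval of the change lay within 2-fold for 505 genes (8.17%), with none of them called. Of the 4256 genes not called, another 3749 had an interval that reached 2-fold or beyond, so that a 2-fold change could not be told from none for them, and 2 had no interval because the fit gave no standard error. The levels of the groups did not overlap in 64.6% of tested genes, with willow above glucose in 31.3% and below it in 33.2%.

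**Figure D1:**
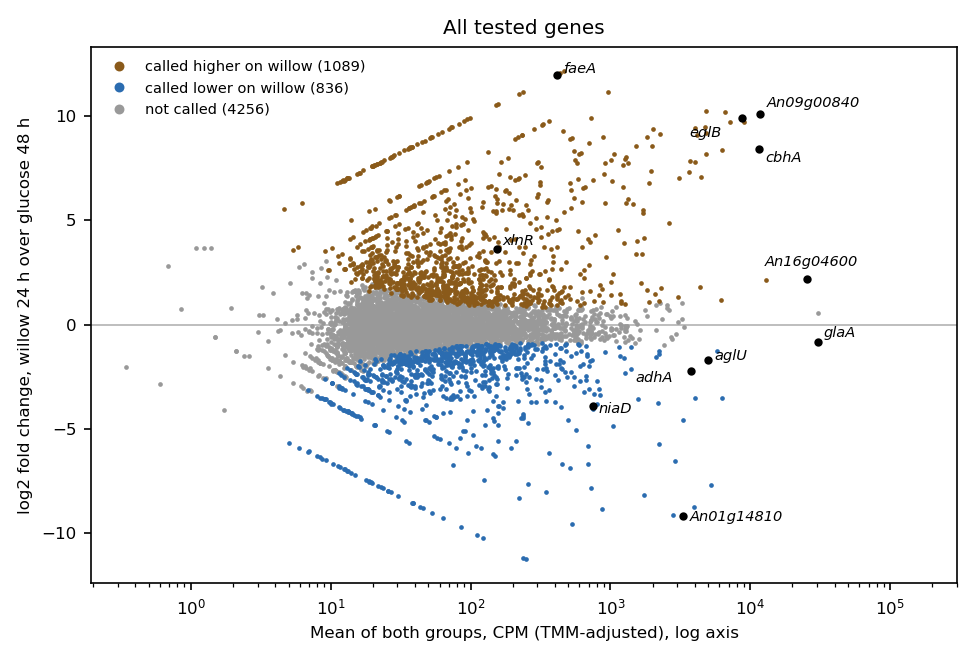
Each point is 1 of 6181 tested genes, with its mean level in CPM over both groups on a log axis and its log2 fold change, willow over glucose, on the vertical axis. Genes called higher on willow (1089) reach further from 0 among abundant genes than those called lower (836). The straight diagonal rows at the edges are genes with few or no counts in one group, whose estimated fold depends on the fitting.

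The reads of the willow libraries were more concentrated on few genes. The 100 genes with most reads held 45.9% and 44.7% of gene reads on willow, against 34.9% and 36.5% on glucose. The number of genes that together held 50% of the reads was 141 and 156 on willow, against 296 and 269 on glucose. Genes called higher held 53.5% and 50.7% of gene reads on willow, against 7.30% and 9.09% on glucose, and genes called lower held 4.45% and 4.77% on willow, against 32.0% and 31.7% on glucose. These shares follow from how the genes were called and carry no test. Of the 100 genes with the highest mean RPKM in each group, 40 were in both lists (40.0% of each).

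Gene lists are described by how many listed members were tested and called. A member could pass the count filter through the one group in which it was high, so the counts and medians of tested members describe the lists and are not evidence for them. The median of all tested genes, -0.08, is the value to read each list's median against. Counts of called members are to be read against the shares of all tested genes, 17.6% higher and 13.5% lower. In a list with few tested members, 1 call in a direction does not set the list apart from these shares. Where 0 members of a list are given as called in a direction, DESeq2 also called 0 in that direction, and 0 had an unadjusted edgeR p under 0.05, with the exception of 1 gene of the cytoskeleton and translation list. Members without a symbol in the reference table stand in a list from their identifier alone. The 4 lists for wall polysaccharides (cellulose, xylan, mannan with xyloglucan and galactose, and pectin) had 64 members. Together these held 16.4% of gene reads in willow A (95% Wilson interval 16.3% to 16.5%) and 15.7% in willow B (15.6% to 15.8%), against 0.123% in glucose A (0.114% to 0.131%) and 0.155% in glucose B (0.146% to 0.164%). Cellulose genes alone held 10.7% and 8.91% of gene reads on willow, against 0.0357% and 0.0385% on glucose. Xylan genes held 4.04% and 4.91% on willow, against 0.0157% and 0.0239% on glucose. Both willow libraries were above both glucose libraries in each of these sums. With 2 libraries per group, an exact permutation test of a single value cannot give a two-sided p below 0.333, so no such p is given for the sums.

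**Figure D2:**
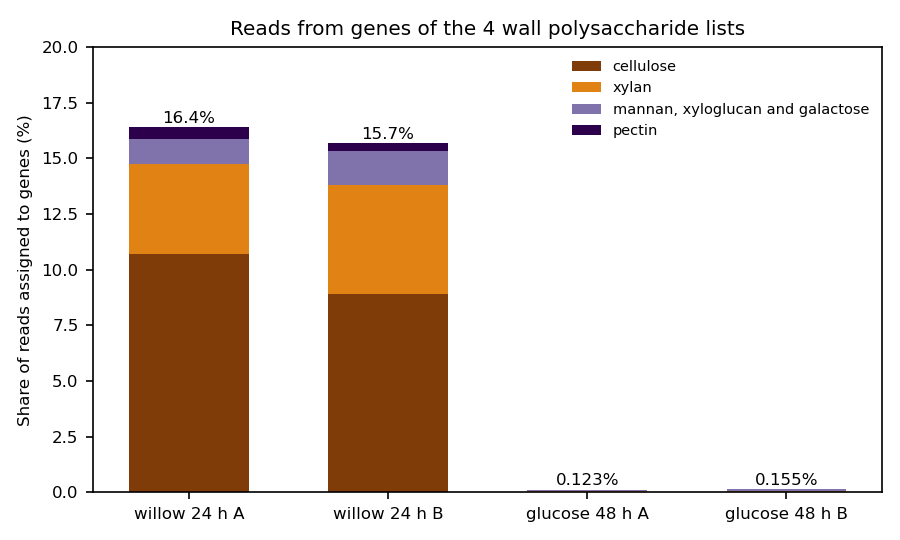
Bars give the share of reads assigned to genes, in percent, that came from the members of the 4 wall polysaccharide lists in each library, stacked by list. The 2 willow libraries reach 16.4% and 15.7%, and the 2 glucose libraries 0.123% and 0.155%.

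Cellulose is cut by cellobiohydrolases, which work from chain ends, by endoglucanases, which cut within chains, and by beta-glucosidases, which split the released cellobiose. Of 18 listed cellulose genes 14 were tested, 11 were higher, 0 were lower and 3 were not called, and the median log2 fold change was 9.12. The cellobiohydrolase gene cbhA had 19162 and 26955 CPM on willow, against 49.4 and 84.6 CPM on glucose (log2 fold change 8.42 ± 0.73, adjusted p = 1.7e-09 by edgeR). Its companion cbhB had 24489.7 and 11568 CPM on willow, against 28.8 and 14.5 CPM on glucose (9.70 ± 0.69, adjusted p = 6.1e-11 by edgeR). The level of cbhA was higher in willow B and that of cbhB higher in willow A, and for both genes the groups did not overlap. The glucose libraries of each gene stood in the same letter order.

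The endoglucanase gene eglB stood at 18999 and 15841 CPM on willow, against 23.3 and 13.3 CPM on glucose (9.89 ± 0.66, adjusted p = 3.6e-11 by edgeR). For eglA, a second endoglucanase gene, 7387 and 8731 CPM on willow, against 15.1 and 8.46 CPM on glucose were measured (9.41 ± 0.57, adjusted p = 1.5e-11 by edgeR). The beta-glucosidase gene bgl1 had 9307 and 8225 CPM on willow, against 61.7 and 66.5 CPM on glucose (7.09 ± 0.50, adjusted p = 5.4e-11 by edgeR). Per transcript length, mean RPKM on willow was 217 for eglB, 157 for cbhA, 123 for cbhB, 118 for eglA and 53.8 for bgl1, so that bgl1 was the lowest of the 5 on that scale. On glucose the mean RPKM of these genes lay between 0.294 for cbhB and 1.01 for cbhA.

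Among listed cellulose genes without a symbol, An01g11670 had the largest estimated change, with 12298 and 6924 CPM on willow, against 13.7 and 2.42 CPM on glucose (10.23 ± 0.70, adjusted p = 4.6e-11 by edgeR). Then came An12g02220, with 16768 and 9551 CPM on willow, against 16.5 and 6.04 CPM on glucose (10.19 ± 0.67, adjusted p = 3.0e-11 by edgeR). Counted per length, An12g04610 had the highest level of the list on willow, at an RPKM of 256, with 15673 and 12841 CPM on willow, against 21.9 and 12.1 CPM on glucose (9.71 ± 0.62, adjusted p = 2.2e-11 by edgeR). Each of the 3 was higher in willow A than in willow B, and in glucose A than in glucose B. An08g01760 had 4152 and 4824 CPM on willow, against 11.0 and 4.84 CPM on glucose (9.14 ± 0.55, adjusted p = 1.5e-11 by edgeR), and An11g02100 had 1132 and 1107 CPM on willow, against 1.37 and 7.25 CPM on glucose (7.90 ± 0.54, adjusted p = 4.1e-11 by edgeR). For An17g00520, 1 count over both glucose libraries against 242 and 148 counts on willow gave a ratio of 739.6 (95% counting interval 132 to 29288). Not called were An14g02670 (1.50 ± 0.66, adjusted p = 0.0906 by edgeR), An16g06800 (0.24 ± 0.47, adjusted p = 0.751 by edgeR) and An08g05230 (-0.43 ± 0.59, adjusted p = 0.636 by edgeR), with at most 71.8 CPM in any library. Of the 4 members not tested, An15g04570 and An12g02540 had no count in the 4 libraries, An15g04900 had 1 count in willow A, and An04g08550 had 1 count in each willow library and 6 counts in glucose B.

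Xylan, the main hemicellulose of hardwood, has a xylose backbone that endoxylanases cut, that beta-xylosidase trims to xylose, and from which other enzymes remove glucuronic acid, arabinose, acetyl and feruloyl groups. Of 14 listed xylan genes 12 were tested, 11 were higher, 0 were lower and 1 was not called, and the median log2 fold change was 8.27. The endoxylanase gene xynB had 7361 and 11629 CPM on willow, against 4.11 and 21.8 CPM on glucose (9.46 ± 0.65, adjusted p = 4.6e-11 by edgeR). A second endoxylanase gene, xynA, had 6124 and 10492 CPM on willow, against 9.60 and 20.6 CPM on glucose (9.07 ± 0.63, adjusted p = 5.0e-11 by edgeR). The beta-xylosidase gene xlnD was lower per length than both, at a mean RPKM of 5.70 on willow against 117 for xynA, and had 1622 and 2416 CPM on willow, against 4.11 and 12.1 CPM on glucose (7.89 ± 0.51, adjusted p = 2.6e-11 by edgeR). The deposited RPKM of xlnD implies a gene model of 5287 bases, against which its level per length is set. All 3 genes were higher in willow B than in willow A, and in glucose B than in glucose A. The glucose levels rest on few counts, 3 and 18 for xynB, 7 and 17 for xynA and 3 and 10 for xlnD.

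Among the enzymes that remove side chains, the alpha-glucuronidase gene aguA had 9784 and 15282 CPM on willow, against 27.4 and 47.1 CPM on glucose (8.38 ± 0.59, adjusted p = 5.4e-11 by edgeR). The arabinoxylan arabinofuranohydrolase gene axhA had 7561 and 11593 CPM on willow, against 28.8 and 37.5 CPM on glucose (8.16 ± 0.58, adjusted p = 6.2e-11 by edgeR). These 2 followed the order of the xylanase genes, with willow B above willow A. The acetyl xylan esterase gene aceA ran the other way, with 13983 and 5341 CPM on willow, against 23.3 and 9.67 CPM on glucose (9.20 ± 0.65, adjusted p = 6.0e-11 by edgeR). The arabinofuranosidase gene abfB had 263 and 329 CPM on willow, against 9.60 and 3.63 CPM on glucose (5.47 ± 0.53, adjusted p = 1.1e-08 by edgeR). On glucose aguA, axhA and aceA kept the letter order they had on willow, and abfB did not.

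Feruloyl esterase, which frees ferulic acid from xylan, is encoded by faeA, with 408 and 282 counts on willow, against 0 and 0 counts on glucose, or 888 and 780.4 CPM on willow. Set against the limit of 3 counts over both glucose libraries it was at least 436-fold higher. Of the members without a symbol, An15g04550 had 539 and 346 counts on willow, against 2 and 1 counts on glucose, a ratio of 559 (95% counting interval 191 to 2718). The gene An08g01710 had 115 and 158 CPM on willow, against 11.0 and 4.84 CPM on glucose (4.09 ± 0.53, adjusted p = 1.3e-06 by edgeR). For An01g14600, 14 and 11 counts on willow, against 0 and 3 counts on glucose gave a ratio of 15.8 (95% counting interval 4.82 to 81.8), and its edgeR call (adjusted p = 0.00299) ended when glucose A was left out (0.0809). The member not called, An12g10390, had 39.2 and 74.7 CPM on willow, against 11.0 and 30.2 CPM on glucose (1.42 ± 0.59, adjusted p = 0.0684 by edgeR). Without willow A or glucose B it was called higher, at edgeR adjusted p = 0.0200 and 0.0233. Not tested were the arabinofuranosidase gene abfA, with 7 and 5 counts on willow, against 4 and 22 counts on glucose, and An14g07390, with 1 count in willow B.

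The list for mannan, xyloglucan and galactose holds enzymes that cut the other hemicelluloses and their galactose side chains. All 8 members were tested, 7 were higher, 0 were lower and 1 was not called, with a median log2 fold change of 2.89, smaller than the medians of cellulose and xylan genes. Within the list the changes fell in 2 ranges. An01g01870 had 6759.8 and 9271 CPM on willow, against 43.9 and 27.8 CPM on glucose (7.80 ± 0.53, adjusted p = 4.1e-11 by edgeR). The beta-galactosidase gene, listed as lacA+, had 2939 and 4832 CPM on willow, against 19.2 and 26.6 CPM on glucose (7.39 ± 0.49, adjusted p = 3.6e-11 by edgeR), and An05g01320 had 1106 and 958 CPM on willow, against 5.49 and 16.9 CPM on glucose (6.47 ± 0.50, adjusted p = 2.3e-10 by edgeR).

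The other 5 genes had between 17.8 and 440.0 CPM on glucose. An09g03300 had 716 and 999 CPM on willow, against 100.1 and 110.0 CPM on glucose (3.02 ± 0.35, adjusted p = 2.2e-07 by edgeR), and mndA, which encodes beta-mannosidase, had 122 and 141 CPM on willow, against 17.8 and 20.6 CPM on glucose (2.76 ± 0.44, adjusted p = 2.1e-05 by edgeR). The 3 alpha-galactosidase genes differed. The gene aglB had 1789.5 and 1716 CPM on willow, against 199 and 440.0 CPM on glucose (2.45 ± 0.39, adjusted p = 2.2e-05 by edgeR), and aglA had 246 and 216 CPM on willow, against 65.8 and 53.2 CPM on glucose (1.96 ± 0.35, adjusted p = 9.4e-05 by edgeR). The third, aglC, had 63.1 and 74.7 CPM on willow, against 42.5 and 26.6 CPM on glucose, did not overlap between groups and was not called (0.99 ± 0.40, adjusted p = 0.0644 by edgeR). A filter of at least 50 counts in 2 libraries made the call (edgeR adjusted p = 0.0398), as did a fit with a replicate block (0.0495). On the RPKM values, limma-trend did not call mndA (adjusted p = 0.0697) or aglA (0.251).

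Pectin is a minor polysaccharide of wood, built of galacturonic acid chains that polygalacturonases and pectin lyases cut, with rhamnogalacturonan stretches that carry arabinan and galactan. Of 24 listed pectin genes 15 were tested, 12 were higher, 0 were lower and 3 were not called. The median log2 fold change was 7.89, or 5.34 when genes with no count on glucose were set to their lower bounds. The 24 genes held 0.504% and 0.346% of gene reads on willow, against 0.0145% and 0.0140% on glucose. Among polygalacturonase genes, pgaC had 709.7 and 476 CPM on willow, against 2.74 and 2.42 CPM on glucose (7.74 ± 0.54, adjusted p = 5.3e-11 by edgeR). The gene pgaE had 174 and 99.6 CPM on willow, against 2.74 and 3.63 CPM on glucose (5.34 ± 0.61, adjusted p = 1.7e-07 by edgeR). With no count on glucose, pgaI was at least 28.4-fold higher (27 and 18 counts on willow, against 0 and 0 counts on glucose), and pgaII was at least 26.6-fold higher (34 and 8 counts on willow, against 0 and 0 counts on glucose). In contrast, pgaB was not called and had 13.1 and 11.1 CPM on willow, against 24.7 and 26.6 CPM on glucose (-1.07 ± 0.69, adjusted p = 0.266 by edgeR). On the RPKM values it was called lower on willow (limma-trend adjusted p = 0.0108).

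For rhamnogalacturonan and arabinan, the rhamnogalacturonan acetylesterase gene rgaeA had 330 and 84 counts on willow, against 0 and 0 counts on glucose, at least 262-fold higher. The arabinanase gene abnA had 284 and 247 counts on willow, against 0 and 1 counts on glucose, a ratio of 1007 (95% counting interval 180.0 to 39849). The rhamnogalacturonase gene rhgA had 1602 and 849.6 CPM on willow, against 8.23 and 0 CPM on glucose (8.23 ± 0.64, adjusted p = 2.8e-10 by edgeR). Its relative rhgB had 32.7 and 47.0 CPM on willow, against 35.7 and 47.1 CPM on glucose and was not called (-0.07 ± 0.53, adjusted p = 0.932 by edgeR), and its groups overlapped. Of the genes without a symbol, An14g01130 had 445 and 314 counts on willow, against 0 and 2 counts on glucose, a ratio of 719.7 (95% counting interval 199 to 5954). The gene An03g02080 had 316 and 162 counts on willow, against 0 and 1 counts on glucose, a ratio of 907 (95% counting interval 162 to 35879), and An03g06740 was at least 46.8-fold higher, with 42 and 32 counts on willow, against 0 and 0 counts on glucose. Smaller calls were those of An12g07500 (4.78 ± 0.54, adjusted p = 1.5e-07 by edgeR) and An18g05940 (3.57 ± 0.62, adjusted p = 6.8e-05 by edgeR), while An02g12450 was not called (0.81 ± 0.69, adjusted p = 0.410 by edgeR).

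Untested pectin genes had few counts. The pectin lyase gene pelA had 9 and 5 counts on willow, against 0 and 1 counts on glucose, pelD had 9 counts in willow A and 0 in the other 3 libraries, and the pectin methylesterase gene pmeA had 6 and 3 counts on willow, against 0 and 0 on glucose. For pelB there were 3 and 1 counts on willow, against 6 and 7 counts on glucose, and for the pectate lyase gene plyA 2 counts in willow A. The polygalacturonase genes pgaA and pgaD had between 0 and 7 counts in each of the 4 libraries. An11g04030 had no count, and An15g07160 had 1 count in willow A and 2 counts in glucose B. In the list for use of galacturonate, the released sugar acid, 5 genes were listed and 3 tested. Called higher were An02g07710, with 56.6 and 33.2 CPM on willow, against 9.60 and 6.04 CPM on glucose (2.52 ± 0.67, adjusted p = 0.00518 by edgeR), and An14g04280, with 39.2 and 58.1 CPM on willow, against 13.7 and 3.63 CPM on glucose (2.48 ± 0.67, adjusted p = 0.00560 by edgeR). Without glucose B neither was called (edgeR adjusted p = 0.0679 and 0.0946), nor was An02g07710 without willow A (0.151). The third, An16g05390, was not called (0.81 ± 0.38, adjusted p = 0.116 by edgeR).

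**Figure D3:**
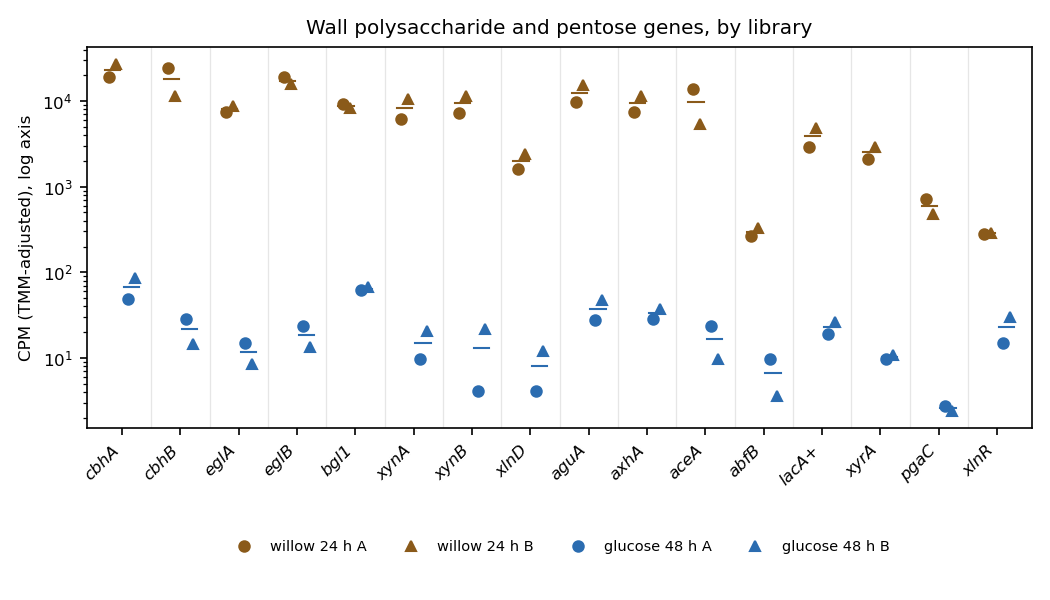
Points give the level of 16 genes for wall polysaccharide breakdown, pentose use and their regulation in each library, in CPM on a log axis, with short lines at the group means. In every gene shown both willow libraries lie above both glucose libraries, with the narrowest gap for the regulator gene xlnR.

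The pentose sugars released from xylan are reduced and oxidised in steps to D-xylulose 5-phosphate. All 4 listed genes were tested and called higher, with a median log2 fold change of 3.85, and together held 0.394% and 0.596% of gene reads on willow, against 0.0266% and 0.0261% on glucose. The D-xylose reductase gene xyrA, for the first step, had 2129 and 2939 CPM on willow, against 9.60 and 10.9 CPM on glucose (7.92 ± 0.51, adjusted p = 2.2e-11 by edgeR). The other members have no symbol. An12g00030 had 2245 and 3595 CPM on willow, against 184 and 181 CPM on glucose (4.0 ± 0.41, adjusted p = 3.5e-08 by edgeR). The values of An07g03140 were 303 and 523 CPM on willow, against 27.4 and 35.1 CPM on glucose (3.71 ± 0.39, adjusted p = 5.4e-08 by edgeR). An01g10920 had 107 and 108 CPM on willow, against 11.0 and 12.1 CPM on glucose (3.19 ± 0.51, adjusted p = 2.6e-05 by edgeR). In all 4 the level in willow B was at or above that in willow A. Both genes of the sugar transport list were called as well. An12g07450 had 3381 and 3216 CPM on willow, against 255 and 110.0 CPM on glucose (4.18 ± 0.44, adjusted p = 5.4e-08 by edgeR), and An03g01620 had 82.7 and 105 CPM on willow, against 1.37 and 6.04 CPM on glucose (4.54 ± 0.65, adjusted p = 5.1e-06 by edgeR).

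Of 13 listed regulators 10 were tested, 4 were higher, 1 was lower and 5 were not called, and the median was 0.80. The activator gene xlnR had 283 and 288 CPM on willow, against 15.1 and 30.2 CPM on glucose (3.63 ± 0.41, adjusted p = 1.3e-07 by edgeR). The level of the repressor gene creA was also higher, with 91.4 and 94.1 CPM on willow, against 28.8 and 41.1 CPM on glucose (1.40 ± 0.43, adjusted p = 0.0144 by edgeR). The call of creA ended without glucose A (1.13, adjusted p = 0.136 by edgeR), with scaling to the total gene count (0.97, adjusted p = 0.0815) and on the RPKM values (0.08, adjusted p = 0.740 by limma-trend). The gene for AmyR, the activator of starch breakdown genes, was lower. For amyR the values were 30.5 and 13.8 CPM on willow, against 89.1 and 68.9 CPM on glucose (-1.78 ± 0.56, adjusted p = 0.0171 by edgeR). Leaving out willow B ended the call (-1.38, adjusted p = 0.0654 by edgeR), and DESeq2 did not make it (adjusted p = 0.0503).

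An04g00780 had 29 and 12 counts on willow, against 2 and 1 counts on glucose, a ratio of 25.9 (95% counting interval 8.27 to 131). An01g07900, one of a pair of entries with the symbol cpcA, the activator of amino acid synthesis under starvation, had 351 and 470.5 CPM on willow, against 215 and 173 CPM on glucose (1.08 ± 0.33, adjusted p = 0.0152 by edgeR). It was not called without glucose B (edgeR adjusted p = 0.115), without willow B (0.125) or with total-count scaling (0.131), and the sign was the opposite on the RPKM values (-0.05, adjusted p = 0.937 by limma-trend). Not called were the pH regulator gene pacC (0.36 ± 0.44, adjusted p = 0.588 by edgeR), the protease regulator gene PrtT (0.20 ± 0.32, adjusted p = 0.687 by edgeR), An13g00910 (1.74 ± 0.72, adjusted p = 0.0712 by edgeR), An15g00300 (-0.58 ± 0.54, adjusted p = 0.456 by edgeR) and An04g08600 (0.51 ± 0.51, adjusted p = 0.486 by edgeR). Replicates of An04g08600 spread widely, at 39.2 and 96.9 CPM on willow, against 72.7 and 21.8 CPM on glucose, and without glucose A it was called higher (1.57, adjusted p = 0.0481 by edgeR). The nitrogen regulator gene areA, An01g07890 and An01g00160 had no count in the 4 libraries, which does not show that their transcripts were missing.

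Of 8 listed genes for starch, sucrose and inulin, 5 were tested, 2 were higher, 1 was lower and 2 were not called, with a median of 0.70. The glucoamylase gene glaA, the gene with most reads on glucose, had 21921 and 22453 CPM on willow, against 33695 and 43753 CPM on glucose. Its groups did not overlap, but it was not called (-0.80 ± 0.52, adjusted p = 0.259 by edgeR), except on the RPKM values (-1.91, adjusted p = 0.0211 by limma-trend). The alpha-glucosidase gene aglU had 2429.6 and 2217 CPM on willow, against 8737 and 6402 CPM on glucose (-1.70 ± 0.44, adjusted p = 0.00389 by edgeR). Higher were An09g03100, with 684 and 639 CPM on willow, against 251 and 192 CPM on glucose (1.58 ± 0.33, adjusted p = 5.7e-04 by edgeR), and inu1, an inulinase gene, with 3 and 5 counts on willow, against 0 and 1 counts on glucose, a ratio of 15.2 (95% counting interval 2.03 to 673). For inu1 the call (edgeR adjusted p = 0.0271) depended on single libraries and on the tool, with none made without glucose A (0.149), without willow B (0.161) or by DESeq2 (0.0694). An01g10930 was not called (0.70 ± 0.35, adjusted p = 0.141 by edgeR). The amylase gene amyA had no count, which does not show that its transcript was missing. The genes inuA and An11g03340 had at most 4 counts in a library.

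Glycolysis, which turns hexoses into pyruvate, had 10 listed genes, all tested, of which 4 were lower, 0 were higher and 6 were not called, with a median of -0.53. The gene for glyceraldehyde-3-phosphate dehydrogenase, gpdA, had 339.6 and 385 CPM on willow, against 591 and 1145 CPM on glucose (-1.26 ± 0.37, adjusted p = 0.00973 by edgeR). The pyruvate kinase gene pkiA had 250.4 and 208 CPM on willow, against 444 and 404 CPM on glucose (-0.89 ± 0.33, adjusted p = 0.0415 by edgeR). An08g02260 had 168 and 152 CPM on willow, against 465 and 585 CPM on glucose (-1.71 ± 0.34, adjusted p = 3.9e-04 by edgeR), and An18g06250 had 370.1 and 426 CPM on willow, against 823 and 745 CPM on glucose (-0.98 ± 0.33, adjusted p = 0.0258 by edgeR). Only An08g02260 of the 4 kept its call in each edgeR fit that left out 1 willow or glucose library, and these fits called between 1 (without willow A) and 2 genes of the list. The call of gpdA was lost without glucose B (-0.75, adjusted p = 0.167) or willow A (-1.18, adjusted p = 0.0560). That of pkiA was lost without any one of these libraries (adjusted p from 0.0518 to 0.211) and by DESeq2 (0.0651). That of An18g06250 was lost without glucose A (0.0709), willow A (0.165) or willow B (0.0675).

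Upper steps of glycolysis were not called. The hexokinase gene hxk had 71.8 and 33.2 CPM on willow, against 60.3 and 105 CPM on glucose (-0.63 ± 0.44, adjusted p = 0.299 by edgeR). The glucokinase gene GlkA had 128 and 213 CPM on willow, against 118 and 119.7 CPM on glucose (0.51 ± 0.35, adjusted p = 0.292 by edgeR). The phosphofructokinase gene pfkA had 126 and 161 CPM on willow, against 79.5 and 163 CPM on glucose (0.23 ± 0.37, adjusted p = 0.691 by edgeR), and the triose-phosphate isomerase gene tpiA had 292 and 277 CPM on willow, against 292 and 221 CPM on glucose (0.15 ± 0.33, adjusted p = 0.778 by edgeR). Both An16g05420 (-0.43 ± 0.34, adjusted p = 0.373 by edgeR) and An02g07470 (-0.01 ± 0.34, adjusted p = 0.980 by edgeR) were not called either. The first enzyme of the oxidative pentose phosphate pathway, glucose-6-phosphate dehydrogenase, is encoded by gsdA, which had 453 and 299 CPM on willow, against 1144 and 837 CPM on glucose (-1.39 ± 0.35, adjusted p = 0.00337 by edgeR). That call was lost without willow B (edgeR adjusted p = 0.0516).

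Of 3 listed genes for pyruvate and alcohol use 2 were lower and 1 was higher, with a median of -2.19. The alcohol dehydrogenase gene adhA had 1424 and 1259 CPM on willow, against 6022 and 6250.1 CPM on glucose (-2.19 ± 0.44, adjusted p = 4.0e-04 by edgeR). An02g06820, listed with it, had 242 and 244 CPM on willow, against 1799 and 3972 CPM on glucose (-3.57 ± 0.46, adjusted p = 1.3e-06 by edgeR). In the other direction, the aldehyde dehydrogenase gene aldA had 1422 and 708 CPM on willow, against 195 and 255 CPM on glucose (2.24 ± 0.37, adjusted p = 3.3e-05 by edgeR), with willow A above willow B. On the RPKM values aldA was not called (0.86, adjusted p = 0.0896 by limma-trend). The gene pyc for pyruvate carboxylase, which makes oxaloacetate from pyruvate, had 194 and 357 CPM on willow, against 750.2 and 779 CPM on glucose (-1.48 ± 0.36, adjusted p = 0.00250 by edgeR), and was not called without willow A (-1.10, adjusted p = 0.0776 by edgeR).

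The list of the citric acid cycle and organic acids had 8 members, all tested, of which 4 were lower, 1 was higher and 3 were not called, with a median of -1.19. The citrate synthase gene citA had 102 and 72.0 CPM on willow, against 421 and 688 CPM on glucose (-2.66 ± 0.39, adjusted p = 6.8e-06 by edgeR). The isocitrate dehydrogenase gene icdA had 78.4 and 77.5 CPM on willow, against 433 and 462 CPM on glucose (-2.52 ± 0.35, adjusted p = 3.5e-06 by edgeR), with closely matching replicates. An10g00820 had 213 and 161 CPM on willow, against 926 and 1394 CPM on glucose (-2.63 ± 0.38, adjusted p = 6.6e-06 by edgeR), and An07g02160 had 34.8 and 49.8 CPM on willow, against 143 and 145 CPM on glucose (-1.78 ± 0.39, adjusted p = 8.8e-04 by edgeR). The riser was An08g10530, with 272 and 376 CPM on willow, against 54.9 and 109 CPM on glucose (1.97 ± 0.37, adjusted p = 2.0e-04 by edgeR), which was not called on the RPKM values (limma-trend adjusted p = 0.291). An15g00070 (-0.61 ± 0.35, adjusted p = 0.199 by edgeR), An11g00510 (0.88 ± 0.42, adjusted p = 0.126 by edgeR) and An11g00530 (-0.14 ± 0.52, adjusted p = 0.873 by edgeR) were not called. A subunit of cytochrome c oxidase, which ends the respiratory chain, is encoded by cox5, a gene outside the lists with 30.5 and 27.7 CPM on willow, against 98.7 and 115 CPM on glucose (-1.87 ± 0.40, adjusted p = 7.3e-04 by edgeR).

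Of 5 listed genes of the glyoxylate cycle and gluconeogenesis, the routes that make sugars from smaller acids, 1 was higher, 2 were lower and 2 were not called, with a median of -0.74. An11g02550 had 202 and 393 CPM on willow, against 21.9 and 15.7 CPM on glucose (3.97 ± 0.43, adjusted p = 6.6e-08 by edgeR). The lower ones were An15g01860, with 26.1 and 41.5 CPM on willow, against 46.6 and 166 CPM on glucose (-1.67 ± 0.52, adjusted p = 0.0163 by edgeR), and An04g05620, with 353 and 307 CPM on willow, against 457 and 793 CPM on glucose (-0.92 ± 0.35, adjusted p = 0.0453 by edgeR). Neither was called without glucose B (edgeR adjusted p = 0.562 and 0.378), without willow A (0.0590 and 0.0956) or by DESeq2 (0.0518 and 0.0777), and An04g05620 was not called without willow B either (0.172). An01g09270 (-0.74 ± 0.37, adjusted p = 0.139 by edgeR) and An04g05300 (0.21 ± 0.34, adjusted p = 0.694 by edgeR) were not called. Without glucose A, An01g09270 was called lower (-1.14, adjusted p = 0.0257 by edgeR). In the list for glucose oxidation, the glucose oxidase gene goxC had 0 and 0 counts on willow, against 2 and 4 counts on glucose, and the catalase gene catR was not called, with 1 and 3 counts on willow, against 0 and 2 counts on glucose.

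Genes for nitrogen assimilation were lower on willow, all 4 of 4 listed, with a median log2 fold change of -3.60. They held 0.151% and 0.0661% of gene reads on willow, against 1.93% and 1.42% on glucose. The nitrate reductase gene niaD had 133 and 49.8 CPM on willow, against 1707 and 1088 CPM on glucose (-3.91 ± 0.46, adjusted p = 3.0e-07 by edgeR). An08g05640 had 1369 and 648 CPM on willow, against 13128 and 9932 CPM on glucose (-3.51 ± 0.51, adjusted p = 6.3e-06 by edgeR), and An08g05670 had 61.0 and 13.8 CPM on willow, against 709 and 299.8 CPM on glucose (-3.69 ± 0.51, adjusted p = 3.1e-06 by edgeR). The glutamate dehydrogenase gene gdhA, which fixes ammonium into glutamate, had 266 and 83.0 CPM on willow, against 1263 and 1709 CPM on glucose (-3.07 ± 0.44, adjusted p = 5.2e-06 by edgeR). In each of the 4 genes willow A was above willow B, by a median of 2.93-fold, and both were below both glucose libraries. The composition of the medium is given in the labels only for its carbon source, so the nitrogen source of the groups is not compared here.

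Among 5 listed genes of amino acid and nucleotide synthesis, a pair of genes for 3-isopropylmalate dehydrogenase, the leucine pathway enzyme, moved in opposite directions. The gene leu2A had 32.7 and 19.4 CPM on willow, against 258 and 172 CPM on glucose (-3.01 ± 0.44, adjusted p = 6.5e-06 by edgeR). The gene leu2B had 128 and 199 CPM on willow, against 19.2 and 20.6 CPM on glucose (3.02 ± 0.44, adjusted p = 7.3e-06 by edgeR). Neither gene overlapped between groups. The third tested member, pyrA, was not called (-0.33 ± 0.54, adjusted p = 0.695 by edgeR). The genes argB and trpC had no count in the 4 libraries. Growing mycelium needs both pathways, so these counts of 0 do not show that the transcripts were missing.

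**Figure D4:**
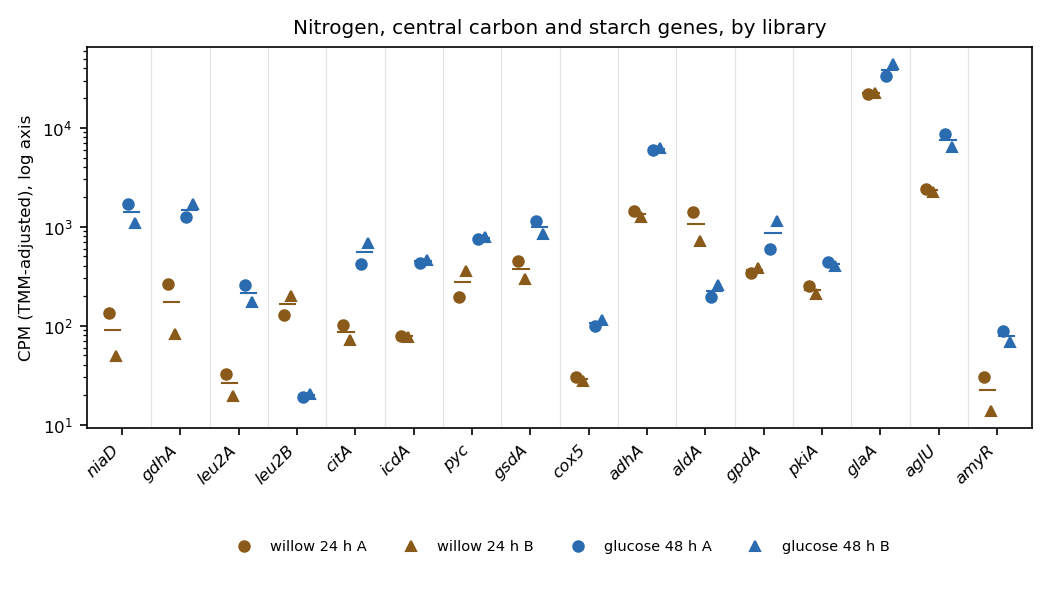
Points give the level of 16 genes for nitrogen assimilation, leucine synthesis, central carbon metabolism and starch breakdown in each library, in CPM on a log axis, with short lines at the group means. Both willow libraries lie below both glucose libraries in 14 of these genes and above them in leu2B and aldA.

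Proteases were mixed. Of 7 listed genes 6 were tested, 3 were higher, 1 was lower and 2 were not called, with a median of 0.44. The gene pepA for the secreted aspartic protease aspergillopepsin had 1807 and 792 CPM on willow, against 9.60 and 16.9 CPM on glucose (6.58 ± 0.50, adjusted p = 1.9e-10 by edgeR). The aminopeptidase gene apsA had 100.1 and 96.9 CPM on willow, against 30.2 and 35.1 CPM on glucose (1.59 ± 0.43, adjusted p = 0.00567 by edgeR), which was not called when glucose A was left out (adjusted p = 0.0535 by edgeR). The subtilisin gene pepD had 9 counts in willow B and none in the other 3 libraries, so its call (edgeR adjusted p = 0.0256) rests on that library. It was lost without either glucose library (0.0768 and 0.0828) and by DESeq2 (0.261). The carboxypeptidase gene pepF had 37.0 and 22.1 CPM on willow, against 82.3 and 103 CPM on glucose (-1.62 ± 0.44, adjusted p = 0.00673 by edgeR) and was not called without willow B (0.0586 by edgeR).

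The vacuolar protease gene pepE (-0.71 ± 0.36, adjusted p = 0.139 by edgeR) and the processing protease gene kexB (-0.89 ± 0.40, adjusted p = 0.0980 by edgeR) were not called. Scaled to the total count, both were called lower (adjusted p = 0.0154 and 0.0111 by edgeR), and without willow A kexB was (0.0157). No count was found for pepC, which does not show that its transcript was missing. The acid protease gene proctase-A had 1776 and 3548 CPM on willow, against 583 and 742 CPM on glucose (2.01 ± 0.39, adjusted p = 2.9e-04 by edgeR). The identifiers of proctase-A and of EPR, whose values follow further on, were left out of the count because the list did not name their symbols. With both kept, a choice added after the values were seen, 5 of 8 tested genes were higher and 1 was lower, with a median of 1.33.

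The list for chitin and glucan breakdown, which covers the fungus's own wall, had 2 members, both higher. An02g07020 had 2410.0 and 2839 CPM on willow, against 37.0 and 43.5 CPM on glucose (6.02 ± 0.46, adjusted p = 2.2e-10 by edgeR). An09g02240 had 425 and 141 CPM on willow, against 2.74 and 9.67 CPM on glucose (5.44 ± 0.58, adjusted p = 5.1e-08 by edgeR), with willow A above willow B. Both genes of the autophagy list were higher, An04g03950 with 231 and 376 CPM on willow, against 98.7 and 158 CPM on glucose (1.23 ± 0.35, adjusted p = 0.00888 by edgeR) and An07g10020 with 555 and 684 CPM on willow, against 274 and 269.6 CPM on glucose (1.19 ± 0.34, adjusted p = 0.00851 by edgeR). Neither call was made with total-count scaling (adjusted p = 0.0712 and 0.0776 by edgeR) or without willow B (0.137 and 0.0542), nor that of An04g03950 without glucose A (0.123). In the wall synthesis list 2 of 5 genes were lower and 3 were not called, with a median of -0.37. The lower ones were An03g05940, with 0 and 2 counts on willow, against 90 and 74 counts on glucose, which is a glucose over willow ratio of 43.2 (95% counting interval 11.8 to 360.0), and An04g09890, with 23.9 and 44.3 CPM on willow, against 79.5 and 102 CPM on glucose (-1.43 ± 0.44, adjusted p = 0.0144 by edgeR). The call of An04g09890 was lost without glucose B (edgeR adjusted p = 0.0559), without willow A (0.157) and by DESeq2 (0.0503). An06g01550, An09g03070 and An18g06820 were not called, with log2 fold changes of -0.15 ± 0.33, -0.37 ± 0.36 and -0.17 ± 0.32.

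Conidia, the asexual spores, would bring their own transcripts into a culture, so 8 conidiation genes were examined beside the mycelial label. All 8 had a count in the 4 libraries, 4 were tested and 1 was higher, An09g05730, with 181 and 163 CPM on willow, against 63.1 and 75.0 CPM on glucose (1.31 ± 0.35, adjusted p = 0.00560 by edgeR). Total-count scaling (adjusted p = 0.0529 by edgeR) and leaving out glucose A (0.0566) ended that call. The summed level of the list was 590.0 and 542 CPM on willow, against 291 and 316 CPM on glucose, and the part of spores in the other results was not tested. The untested members had between 0 and 11 counts in a library. The gene An14g05350 was not called (0.86 ± 0.67, adjusted p = 0.362 by edgeR), but was called higher without glucose A (2.68, adjusted p = 0.0101 by edgeR). Neither An05g00480 (0.68 ± 0.32, adjusted p = 0.120 by edgeR) nor An02g03160 (1.18 ± 0.59, adjusted p = 0.140 by edgeR) was called. Of 7 hydrophobin genes, which code for proteins coating aerial hyphae and spores, 4 were tested and An08g09880 was higher, with 124 and 102 CPM on willow, against 12.3 and 10.9 CPM on glucose (3.27 ± 0.47, adjusted p = 5.1e-06 by edgeR). An03g02360 (1.58 ± 0.69, adjusted p = 0.0850 by edgeR), An03g02400 (1.27 ± 0.59, adjusted p = 0.112 by edgeR) and An07g03340 (0.20 ± 0.51, adjusted p = 0.809 by edgeR) were not called.

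Secreted proteins pass through the endoplasmic reticulum, where they are folded and packed into vesicles. Of 7 listed genes for secretion and folding 5 were tested, and edgeR called 0, with log2 fold changes between -0.12 and 0.99. The endoplasmic reticulum chaperone gene bipA had 113 and 147 CPM on willow, against 125 and 156 CPM on glucose (-0.12 ± 0.34, adjusted p = 0.829 by edgeR). The disulfide isomerase gene tigA had 250.4 and 399 CPM on willow, against 302 and 320.4 CPM on glucose (0.06 ± 0.34, adjusted p = 0.917 by edgeR). The vesicle budding gene sarA had 30.5 and 19.4 CPM on willow, against 15.1 and 21.8 CPM on glucose (0.44 ± 0.62, adjusted p = 0.640 by edgeR). An01g08420 (0.57 ± 0.34, adjusted p = 0.224 by edgeR) and srpA (0.99 ± 0.51, adjusted p = 0.152 by edgeR) were not called either. The gene pdiA had no count, which does not show that its transcript was missing. The gene prpA had 9 and 0 counts on willow, against 7 and 13 counts on glucose. In the list for cytoskeleton and translation, often used as references, 0 of 3 genes were called, with An15g00560 at -0.43 ± 0.33, An08g03190 at -0.86 ± 0.39 and An18g04840 at -0.19 ± 0.32. Both An15g00560 and An08g03190 were called lower when scaled to the total count (adjusted p = 0.0428 and 0.0108 by edgeR) and on the RPKM values.

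**Figure D5:**
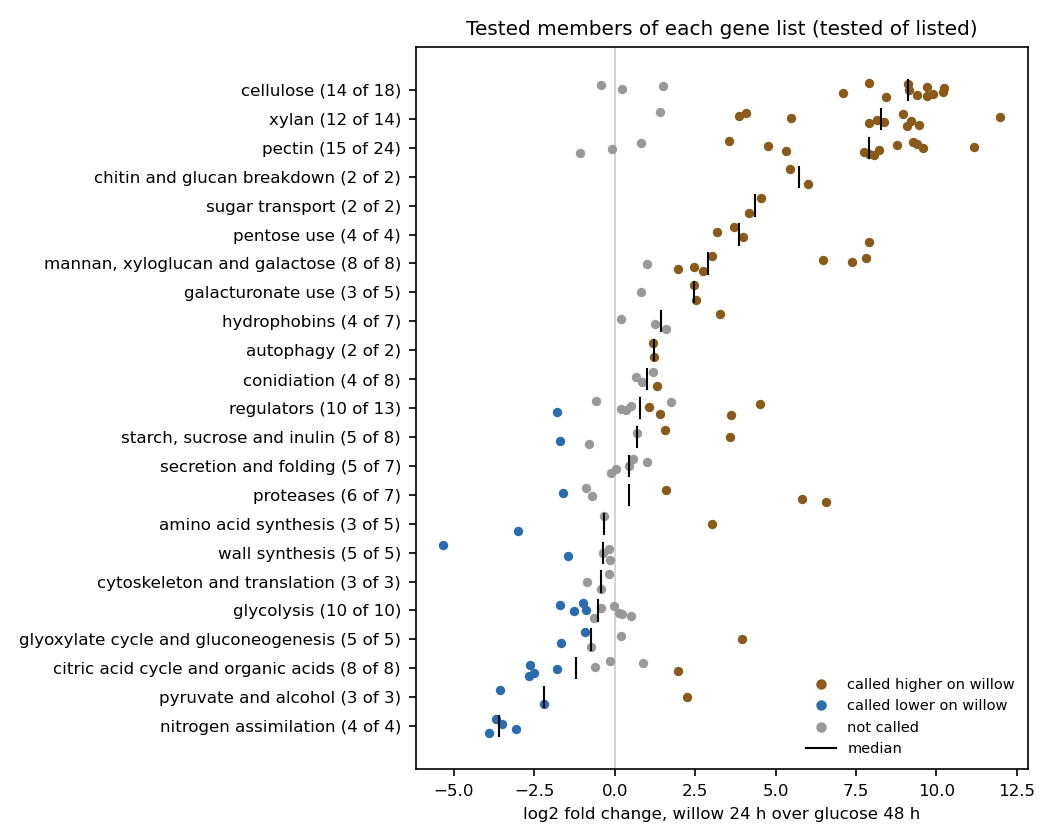
Points give the log2 fold change, willow over glucose, of each tested list member, with the median of the list as a black line. Numbers in brackets give tested of listed members. The lists run from nitrogen assimilation, with a median of -3.60, to cellulose, with a median of 9.12.

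Of the 129 genes with a symbol, 101 were tested, 42 were higher and 14 were lower, beside 17.6% higher and 13.5% lower of all tested genes. Some of those outside the lists are named here after their values were seen. The dihydroxybenzoate decarboxylase gene dhbD had 146 and 194 CPM on willow, against 5.49 and 6.04 CPM on glucose (4.82 ± 0.52, adjusted p = 7.1e-08 by edgeR), the largest change among these. The trehalose-6-phosphate synthase gene tpsB, for making the storage sugar trehalose, had 562 and 650.4 CPM on willow, against 191 and 265 CPM on glucose (1.41 ± 0.33, adjusted p = 0.00183 by edgeR), while tpsA, for the same step, had 300.4 and 299 CPM on willow, against 211 and 144 CPM on glucose and was not called (0.76 ± 0.33, adjusted p = 0.0849 by edgeR). For hyl1 the values were 438 and 764 CPM on willow, against 158 and 106 CPM on glucose (2.18 ± 0.36, adjusted p = 3.5e-05 by edgeR). Smaller increases were called for Balu-42 (1.32 ± 0.35, adjusted p = 0.00541 by edgeR), the amine oxidase gene AO-I (1.20 ± 0.40, adjusted p = 0.0241 by edgeR), EPR (1.08 ± 0.37, adjusted p = 0.0268 by edgeR) and the protein kinase A catalytic subunit gene pkaC (1.06 ± 0.35, adjusted p = 0.0226 by edgeR). Each of these 4 calls was lost in at least 1 of the 4 edgeR fits without a willow or glucose library. They were lost without willow A for Balu-42 (0.158) and EPR (0.0787), without willow B for AO-I (0.106), EPR (0.0622) and pkaC (0.108), without glucose A for EPR (0.133) and pkaC (0.122), and without glucose B for AO-I (0.287) and pkaC (0.0958).

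Among increases in genes without a symbol or list, An09g00840 had 34184 and 12619.8 CPM on willow, against 31.5 and 10.9 CPM on glucose (10.11 ± 0.76, adjusted p = 1.5e-10 by edgeR), and per length it was among the most abundant transcripts of the willow libraries, at a mean RPKM of 773 on willow, against 1.37 on glucose. An16g01880 had 3329 and 4616 CPM on willow, against 9.60 and 10.9 CPM on glucose (8.57 ± 0.60, adjusted p = 5.4e-11 by edgeR). The largest gains in CPM also included 2 genes with at least 2623 CPM in every library. An16g04600 had 33720.4 and 49552 CPM on willow, against 4435 and 13731 CPM on glucose (2.20 ± 0.77, adjusted p = 0.0310 by edgeR), and TID_37299, which has no An identifier, had 23259.6 and 19107 CPM on willow, against 2623 and 6805 CPM on glucose (2.17 ± 0.69, adjusted p = 0.0182 by edgeR). DESeq2 called neither of these (adjusted p = 0.262 and 0.211), and An16g04600 was also not called with total-count scaling (edgeR adjusted p = 0.0560).

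Among decreases, An01g14810 and its neighbour An01g14820 stood out. The values of An01g14810 were 4.35 and 19.4 CPM on willow, against 5780.4 and 7431 CPM on glucose (-9.18 ± 0.68, adjusted p = 1.1e-10 by edgeR). Those of An01g14820 were 4.35 and 16.6 CPM on willow, against 5521 and 5683 CPM on glucose (-9.11 ± 0.58, adjusted p = 2.2e-11 by edgeR). An13g01760 had 19.6 and 16.6 CPM on willow, against 6008 and 9803 CPM on glucose (-8.75 ± 0.57, adjusted p = 2.9e-11 by edgeR). In these 3 genes both glucose libraries were at 5521 CPM or more and both willow libraries at most at 19.6 CPM. A further 4 decreases were in genes without an An identifier. TID_211885 had 61.0 and 38.7 CPM on willow, against 13231 and 7424 CPM on glucose (-7.67 ± 0.59, adjusted p = 2.0e-10 by edgeR), TID_211877 had 17.4 and 5.54 CPM on willow, against 5063 and 1804 CPM on glucose (-8.13 ± 0.64, adjusted p = 3.6e-10 by edgeR), and TID_42743 had 80.6 and 41.5 CPM on willow, against 6577 and 4816 CPM on glucose (-6.52 ± 0.52, adjusted p = 3.4e-10 by edgeR). TID_124807 had 2 and 1 counts on willow, against 1800 and 838 counts on glucose, a glucose over willow ratio of 464 (95% counting interval 158 to 2249.8).

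Decreases of smaller fold in abundant genes were those of An02g10320 (-4.56 ± 0.42, adjusted p = 5.9e-09 by edgeR), An03g06410 (-3.97 ± 0.42, adjusted p = 6.0e-08 by edgeR), An01g13060 (-3.73 ± 0.46, adjusted p = 5.2e-07 by edgeR) and An16g03330 (-3.72 ± 0.43, adjusted p = 2.2e-07 by edgeR). An01g03480 had 2891 and 3991 CPM on willow, against 7271 and 9133 CPM on glucose (-1.25 ± 0.41, adjusted p = 0.0204 by edgeR), and leaving out willow A ended that call (adjusted p = 0.148 by edgeR). Of 271 tested genes without an An identifier, 46 were higher (17.0%) and 47 lower (17.3%), against 17.6% and 13.5% of all tested genes.

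Some genes had counts in only one group. Counts on willow and none on glucose were found for 800 genes, 67 of them with at least 20 counts, and counts on glucose and none on willow for 1297 genes, 60 of them with at least 20 counts. The 5 with most counts on willow included faeA and rgaeA, described above. The other 3 were An11g00390, with 527 and 260 counts on willow, against 0 and 0 counts on glucose (at least 498-fold higher), An16g00540, with 417 and 306 counts on willow, against 0 and 0 counts on glucose (at least 457-fold higher), and An14g01330, with 268 and 109 counts on willow, against 0 and 0 counts on glucose (at least 238-fold higher). The 5 with most counts on glucose were An04g08300, with 0 and 0 counts on willow, against 222 and 566 counts on glucose (at least 139-fold lower), An17g01710, with 0 and 0 counts on willow, against 456 and 266 counts on glucose (at least 127-fold lower), An04g08060 (at least 65.7-fold lower), An09g03660 (at least 59.4-fold lower) and An04g08320 (at least 47.1-fold lower). The identifiers An04g08300 and An04g08320 lie close together in the locus numbering.

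In the gene order of the reference table, 9 runs of at least 4 adjacent genes were all called in one direction, 6 higher and 3 lower, and held 43 of 14055 ordered genes. These runs are a description, with no test of how many would arise by chance. The longest were 6 genes from An18g02680 to An18g02730, all higher. The largest change in it was that of An18g02730, with 205 and 279.5 CPM on willow, against 5.49 and 2.42 CPM on glucose (5.89 ± 0.54, adjusted p = 3.8e-09 by edgeR), and the smallest that of An18g02680 (1.21 ± 0.36, adjusted p = 0.0122 by edgeR), which was not called when glucose A was left out (0.118 by edgeR). A second run of 5 higher genes, An01g06810 to An01g06850, ranged in log2 fold change from 1.16 ± 0.38 in An01g06820 to 5.99 ± 0.49 in An01g06810. An01g06820 was not called when glucose A (adjusted p = 0.213 by edgeR) or willow A (0.112) was left out. The endoglucanase gene eglB stood at one end of a run of 5 higher genes that began with An07g08910. In that run An07g08940 had 1665 and 1857 CPM on willow, against 0 and 6.04 CPM on glucose (9.02 ± 0.60, adjusted p = 3.4e-11 by edgeR). Its middle gene, An07g08930, had 10 and 10 counts on willow, against 0 and 0 counts on glucose, and had too few counts to be tested when either willow library was left out, which would break the run.

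Another run of 5 higher genes, An06g02110 to An06g02150, held An06g02130, with 120 and 125 counts on willow, against 0 and 0 counts on glucose, at least 155-fold higher. Its last gene, An06g02150, had 24 and 12 counts on willow, against 0 and 0 counts on glucose, and too few to be tested without willow A. Runs of 4 higher genes were An11g06420 to An11g06450 and An13g00920 to An13g00950. Of these, An13g00920 had 470.2 and 354 CPM on willow, against 4.11 and 2.42 CPM on glucose (6.91 ± 0.55, adjusted p = 3.6e-10 by edgeR), and the call of An13g00940 was lost without willow A (edgeR adjusted p = 0.737) or glucose A (0.0881). Lower runs were An03g00650 to An03g00690, An03g03520 to An03g03560 and An12g03750 to An12g03780. In the first of these An03g00660 had 34.8 and 136 CPM on willow, against 2322 and 6336 CPM on glucose (-5.70 ± 0.59, adjusted p = 4.0e-08 by edgeR), and the call of An03g00690 was lost without glucose B (0.227 by edgeR). In the second, An03g03530 had 1 and 1 counts on willow, against 491 and 577 counts on glucose, and An03g03540 and An03g03550 had no count on willow and were at least 28.8-fold and at least 34.6-fold lower. In the third, An12g03760 had 507 and 803 CPM on willow, against 5277 and 9618 CPM on glucose (-3.51 ± 0.45, adjusted p = 1.2e-06 by edgeR), and the call of An12g03750 was lost without glucose B (edgeR adjusted p = 0.179) and by DESeq2 (0.330).

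With TMM scaling, the genes with a 95% interval within 2-fold include abundant transcripts. With total-count scaling 84 of the 505 still had such an interval. The 8 with the highest mean CPM among the 505 had between 869 and 3526 CPM in the willow libraries and between 1156 and 3682 CPM in the glucose libraries. The gene sspB had 3078 and 3307 CPM on willow, against 3682 and 3244 CPM on glucose (-0.12 ± 0.38, 95% interval -0.90 to 0.67). An08g05790 had 2902 and 3526 CPM on willow, against 2532 and 3291 CPM on glucose (0.14 ± 0.37). For the other 6 (An07g03770, An13g00630, An02g04540, An03g04530, An11g11310 and An16g05920) the log2 fold changes lay between -0.21 and 0.19. Mean RPKM, which is scaled to all reads, was lower on willow in each of the 8, at 18.7 on willow, against 43.8 on glucose for sspB, and the ratios of willow to glucose lay between 0.393 for An03g04530 and 0.540 for An13g00630. The lowest limma-trend adjusted p of the 8 on the RPKM values was 0.0656, and 16 of the 505 genes were called lower there.

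The 2 willow cultures differed from each other in a way that varied between lists. Over all 6181 tested genes, willow A was above willow B in 49.7%. Among called list members, it was above in 8 of 11 cellulose genes, 10 of 12 pectin genes and 4 of 4 nitrogen genes, and in 4 of 11 xylan genes, 3 of 7 mannan, xyloglucan and galactose genes and 0 of 4 pentose genes. The median ratio of willow A to willow B was 1.20 for cellulose, 1.51 for pectin and 2.93 for nitrogen assimilation, against 0.731 for xylan and 0.674 for pentose use. With 1 culture on each side this difference has no replicate check. In some of these genes, such as cbhA, cbhB, xynA, xynB and aceA, the glucose libraries stood in the same letter order. In others, such as eglA, bgl1, abfB and gdhA, they stood in the opposite order. Whether a difference by letter is shared between the groups was not tested. In each called member of these 6 lists, both willow cultures lay on the same side of both glucose cultures. This follows largely from the call, since the groups overlapped in only 3 of the 1089 higher and 2 of the 836 lower genes.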

How the data were processed

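RNA was measured in mycelium of 4 shake flask cultures (2 on willow for 24 h, 2 on glucose for 48 h). Per the labels' protocols, ribosomal RNA was removed with a Ribominus kit before SOLiD whole transcriptome libraries were made and sequenced as 50 and 35 bp read pairs. The submitters' processing notes name HTSeq, while aligner and genome build are not given in the sources used. Each deposited table holds, per the file headers, the authors' counts of reads per gene and their RPKM values. Another 5 entries per library (reads outside genes, ambiguous, of low quality, not aligned or multiply aligned) held between 97.0% and 98.5% of reads and entered neither library sizes nor tests. From the values, the authors divided the deposited RPKM by a total that takes in these entries. Multiply aligned reads were not counted to genes, so values of near-identical genes are uncertain, and with no statement on strand, overlapping or antisense genes could share reads.

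Of 15431 genes, 14114 carry an identifier of a second strain (beginning with An) in the files, 14069 of these are in the reference table (RefSeq), and 129 have a protein-coding symbol there. That table gave symbols and neighbours. Its build is not matched to that of the files, and no coordinates or sequences are given. The test was edgeR's quasi-likelihood F test (version 4.0.16, R 4.3.3, TMM factors, filterByExpr with a minimum count of 10 and a minimum total of 15). One fit held all 6 libraries, which share the estimate of spread with 3 residual degrees of freedom, and only the difference between willow and glucose was used. The standard error of a log2 fold change was taken as its size over the square root of F. The common biological coefficient of variation was 25.8%, and replicate pairs differed by more than sampling noise (chi-square over its degrees of freedom 7.35 on willow and 9.27 on glucose). Folds against a group without a count use 3 counts over both libraries as its limit, and folds against 1 to 3 counts carry a 95% counting interval. The procedure was tested on simulated counts. Alternatives were DESeq2 1.42.0, limma-trend (limma 3.58.1) on log2(RPKM + 1), 3 other scalings, 2 other filters, a test against 2-fold, a fit of both groups alone, a replicate block and leaving out each library.

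Members and lists were chosen with earlier results of these data known. Genes named are the 12 largest increases and decreases in fold (called, no overlap, higher group's mean RPKM 50 or more), the 12 largest gains and losses in mean CPM, up to 6 called members per list (all members of lists with at most 5 tested, and all regulators), the 5 genes with most counts and none in the other group in each direction, the 8 genes of highest mean CPM with an interval within 2-fold, and the 3 longest runs of neighbours. Other list members, other runs and symbol genes outside the lists are named after their values were seen. The listed identifiers An08g11070, An01g00530 and An08g04490 were left out of the starch and protease lists because the table gives them symbols (suc1, proctase-A and EPR) that these lists did not name.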

Additional observations from a re-analysis of the deposited data

How the results depend on the processing

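The number of called genes was 1925 (1089 higher, 836 lower). It was 1125 (703 higher, 422 lower) when the change was tested against 2-fold, and 1056 (554 higher, 502 lower) with at least 50 counts required in 2 libraries, with fewer genes tested. Scaling to the total gene count gave 1532 lower genes, and limma-trend on log2(RPKM + 1) gave 478 higher and 1769 lower genes, so that higher genes made up 35.2% and 21.3% of calls, against 56.6% with TMM. Leaving out each library in turn gave between 1618 and 2037 called genes, between 926 and 1157 higher and between 672 and 880 lower. In each of the 4 fits without a willow or glucose library, 657 of the higher genes (60.3%) and 404 of the lower genes (48.3%) remained called (16 and 2 of the others were lost only because they were no longer tested), and 239 and 277 were called under all 16 alternatives. On the RPKM values 64 of the 1089 higher genes and 0 of the 836 lower genes had the opposite sign, and without willow A 1 higher gene did. Among the named genes, 3 were reversed on the RPKM values, at -0.0453 for An01g07900, -0.0427 for EPR and -0.0412 for pkaC (limma-trend adjusted p = 0.937, 0.960 and 0.937). The cause of these changes was not tested. Of the comparisons of 249 named genes with their alternatives, 3714 stayed on the same side of the threshold, 157 lost and 45 gained a call. Deviations of same-lettered willow and glucose libraries correlated at -0.0137. Those of either group with the third group of the fit (willow with glucose added) correlated at 0.167 for willow and 0.120 for glucose. Multiply aligned reads took a larger share in each library lettered B than in its A replicate. This share was 75.7% against 69.8% for willow, 68.3% against 58.4% for glucose and 74.8% against 58.8% for the third group. Correlations of this kind cannot exclude a batch shared by letter, and whether the letters pair the samples was not tested further. With the letter as a block, 2004 genes were called (1127 higher, 877 lower). The median standard error of the log2 fold change was 0.76 for genes with fewer than 50 counts over the 4 libraries, 0.36 for those with 200 to under 1000 and 0.37 for those with 1000 or more, and 22.7%, 39.0% and 50.3% of them were called. Depth itself was not varied. Keeping 2 identifiers left out of the protease list, an alternative chosen after seeing the data, gave 5 higher genes in place of 3.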
